A study of Homo sapiens with 9 samples.

Results

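The 1129 genes described here lie on chromosome 2, which carries the *EPCART* locus deleted in the 2 *EPCART*-del clones. They were all chromosome 2 genes whose normalized count averaged 1 or more over the 9 libraries, out of 1243 chromosome 2 genes in the table and 17530 genes that passed the same minimum genome-wide. Another 114 chromosome 2 genes fell under the minimum, 53 of them with no read in any library. The last members inside it were *ENSG00000288658* with a mean of 1.03 and *OSR1* with 1.05, and the first genes outside were *CRYBA2* with 0.959 and *ITPRIPL1* with 0.912. Each gene was placed by the distance of its start from *EPCART* and by chromosome arm, which gave 34 genes under 5 megabases (Mb) away, 125 at 5 to 20 Mb, 347 at 20 to 60 Mb, 184 over 60 Mb away on the long arm and 439 over 60 Mb away on the short arm. The grouping used position and the overall expression level, not a difference between clones. The question was whether lower expression in the deletion clones was centred on the deleted locus.

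RNA-seq had been performed on poly-A RNA of LNCaP cells, an androgen-responsive prostate cancer line derived from a lymph node metastasis. The clones del-4 and del-56 had lost the promoter and exons 1 and 2 of *EPCART* by CRISPR-Cas9 editing, and the wild-type (WT) control came from the same editing work. Each genotype was represented by 3 biological replicates grown for 48 h in RPMI medium with fetal bovine serum and no further treatment. Del-4 and del-56 are each a single clone and both were compared with the same 3 WT libraries, so the deletion and the differences between clones of one line cannot be told apart, and p-values measure the spread between these cultures. The labels do not state whether the 3 WT libraries came from 1 clone. The paper writes of the WT clone, in the singular, in its RNA-seq results and of WT clones in its methods.

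*EPCART* is a long noncoding RNA, an RNA that is transcribed and spliced like a messenger RNA but does not encode a protein. Such RNAs can act on genes beside their own locus, which is called action in cis, or on distant genes and on proteins, which is called action in trans. Removing a promoter can also take away DNA elements that neighbouring genes use, and for these reasons the neighbours of a deleted locus are commonly inspected gene by gene.

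The locus itself is shown by the oligonucleotides of the study that match it, since they fix the place from which distances were counted. Only chromosome 2 of GRCh38 was searched, and the matches lay on its long arm. Together with 5′RACE oligonucleotides that are not listed below, they spanned chr2:180113421-180141362. In this stretch of 27942 bases *EPCART* reads from high to low coordinate, and distances were counted from position 180127000 within it. No GENCODE 44 gene lay over this span and the table held no row for it, so the loss of *EPCART* was not checked here.
qPCR forward (chr2:180141322-180141341, minus strand): gccataccagccctgcaatt
qPCR reverse (chr2:180123351-180123371, plus strand): agcagtatttcggcacagaga
3′RACE (chr2:180113470-180113497, minus strand): ggctctgatggcatcacctgagtgtcca
3′RACE nested (chr2:180113421-180113441, minus strand): tggggatctgattggctatgc

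The nearest members on each side of the locus are *CWC22* and *UBE2E3*, and the nearest member called in both clones is *ZNF385B*, the next gene beyond *CWC22*. Their promoters are shown because these genes border the locus and behaved differently from each other. The sequences are those of RefSeq on GRCh38.p14, from 250 bases before to 50 bases after a start site, with each CG dinucleotide in capitals. *CWC22* held 13 CG dinucleotides, *ZNF385B* 22 and *UBE2E3* 33. Of 34943 RefSeq promoters of this length, 51.6% held at least as many as *CWC22*, 37.6% as many as *ZNF385B* and 17.2% as many as *UBE2E3*. The median was 14 over all these promoters and 23 over those of the chromosome 2 members. The *UBE2E3* start in RefSeq lay 13112 bases downstream of the gene start used for its distance.
*CWC22* (chr2:180007248-180007547, minus strand): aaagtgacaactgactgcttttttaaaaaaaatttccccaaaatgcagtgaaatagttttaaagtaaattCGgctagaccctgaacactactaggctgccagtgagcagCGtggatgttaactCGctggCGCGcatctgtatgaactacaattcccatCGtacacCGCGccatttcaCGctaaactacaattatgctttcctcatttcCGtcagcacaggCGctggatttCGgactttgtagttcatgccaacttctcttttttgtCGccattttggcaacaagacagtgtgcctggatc
*ZNF385B* (chr2:179861563-179861862, minus strand): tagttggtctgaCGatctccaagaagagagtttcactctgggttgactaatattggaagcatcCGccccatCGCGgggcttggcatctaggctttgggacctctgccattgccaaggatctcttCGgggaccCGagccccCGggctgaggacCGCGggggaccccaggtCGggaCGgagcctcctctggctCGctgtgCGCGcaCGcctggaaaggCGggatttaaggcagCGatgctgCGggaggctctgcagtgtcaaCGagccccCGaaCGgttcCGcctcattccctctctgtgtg
*UBE2E3* (chr2:180980110-180980409, plus strand): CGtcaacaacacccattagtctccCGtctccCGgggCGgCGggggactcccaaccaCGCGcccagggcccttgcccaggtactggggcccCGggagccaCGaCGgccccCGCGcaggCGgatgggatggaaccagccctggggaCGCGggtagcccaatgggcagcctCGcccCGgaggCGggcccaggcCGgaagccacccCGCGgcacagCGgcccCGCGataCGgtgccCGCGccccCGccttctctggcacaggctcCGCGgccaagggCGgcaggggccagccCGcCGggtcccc

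The libraries were of similar depth, with 91074556 to 118877134 reads on genes. Luminal prostate markers were high in every library, with 35098 to 59860 normalized counts of *KLK3*, 53224 to 61145 of *KRT8* and 36733 to 40262 of *HOXB13*. Of the defining markers of other cells, *CD3E* was at 0 in all 9 libraries, *KRT5* was below 1 and *PTPRC* reached 3.87. The summed levels of 3 fibroblast markers, nearly all of it *COL1A1*, were 996 to 1087 in WT, 1147 to 1398 in clone del-4 and 1250 to 1378 in clone del-56. Those of 3 leukocyte markers, nearly all of it *CD68*, were 486 to 519, 549 to 565 and 519 to 563. Those of 3 basal markers were 19.4 to 64.3 over all libraries. The part of these markers in the results was not tested.

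The typical chromosome 2 gene was lower in both deletion clones, on both arms. Its genes held 5.31% ± 0.0261 (SD, n = 3) of all normalized counts in WT, 4.80% ± 0.0298 in clone del-4 and 4.84% ± 0.0655 in clone del-56, and the WT libraries did not overlap with those of either clone. The median gene had a log2 fold change of −0.15 in clone del-4 and −0.16 in clone del-56 on the log2(normalized count + 1) scale. Over all genes tested the medians were −0.0025 and −0.0011. Relative to genes on other chromosomes, the chromosome 2 median lay −0.16 ± 0.0077 (SD over 3 libraries) away in clone del-4 and −0.17 ± 0.0186 in clone del-56, which was larger than the spread between libraries. Among 23 chromosomes, chromosome 2 had the third lowest median in each clone. Chromosome 16 was lowest with −0.34 and −0.31, and chromosome 13 followed with −0.17 and −0.16.

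The fall consisted of many small decreases. In del-4, 848 of 1129 genes (75.1%) had a fold change below 0, and in del-56, 845 (74.8%). With limma, 414 chromosome 2 genes (36.7%) were called lower in del-4 at a Benjamini-Hochberg adjusted p under 0.05, beside 18.8% of all genes tested. A further 88 (7.79%) were called higher, beside 18.9%. In del-56, 420 (37.2%) were called lower and 82 (7.26%) higher, beside 19.4% and 18.2% of all genes. Changes over 2-fold were few. In del-4, 42 members were called lower by more than 2-fold and 19 higher, where the shares over all genes were 2.86% and 1.87%. In del-56 the corresponding members were 35 and 22, beside 2.7% and 2.1%. As shares of 1129 genes these were 3.72% and 1.68% in clone del-4 and 3.10% and 1.95% in clone del-56, near the background in both directions.

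By distance group, the fall was not deepest near *EPCART*. In del-4, the median log2 fold change was −0.12 within 5 Mb, −0.13 at 5 to 20 Mb, −0.15 at 20 to 60 Mb, −0.17 beyond 60 Mb on the long arm and −0.16 on the short arm. In del-56, the same groups had medians of −0.13, −0.18, −0.15, −0.18 and −0.15. The short arm, which lies across the centromere from the locus, had therefore fallen as far as the arm that carries it, whose 690 genes had medians of −0.15 and −0.16. The genes within 5 Mb had a median 0.027 higher than the rest of the chromosome in clone del-4 and 0.033 higher in clone del-56. The SD of this difference over the 3 libraries of the clone was 0.013 and 0.035, so in del-56 it was within the spread. This SD leaves out the WT libraries. Their medians had an SD of 0.020 within 5 Mb and 0.0042 in the rest, so the del-4 difference was not clearly outside the spread either. In del-4 the difference was 0.072 among genes with a mean count of at least 10. It turned to −0.0044 with no minimum count and to −0.0047 after quantile normalization. It was 0.070 without del-4 1 and 0.050 without del-4 2.

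Each deletion library showed the fall when the medians of single libraries were taken relative to the WT mean. Within 5 Mb, they were −0.0016, −0.020 and 0.020 in the WT libraries, −0.099, −0.097 and −0.13 in clone del-4 and −0.17, −0.083 and −0.075 in clone del-56. Every deletion library lay below every WT library. The summed counts, which a few highly expressed genes decide, differed from the medians here, since these genes held 0.169% ± 0.00234 (SD, n = 3) of all normalized counts in WT, 0.178% ± 0.00223 in clone del-4 and 0.151% ± 0.0044 in clone del-56, without overlap. On the short arm, they were 0.0052, −0.0068 and −0.0031 in WT, −0.14, −0.15 and −0.16 in clone del-4 and −0.18, −0.15 and −0.14 in clone del-56, again without overlap. The groups at 5 to 20 Mb, at 20 to 60 Mb and beyond 60 Mb on the long arm likewise had no overlap between WT and deletion libraries. At 5 to 20 Mb the del-56 libraries ranged most widely, from −0.24 to −0.11, and replicate 1 was the lowest. Genes on other chromosomes ranged from 0.0052 to 0.0095 in clone del-4 and 0.0060 to 0.013 in clone del-56. Genes at 0 in all libraries of one genotype did not set the group medians of the fold changes. Those medians stayed between −0.12 and −0.18 in every group when 26 such members per clone were placed at the limit of 3 reads per library. The medians of single libraries were not recomputed in this way.

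**Figure D1:**
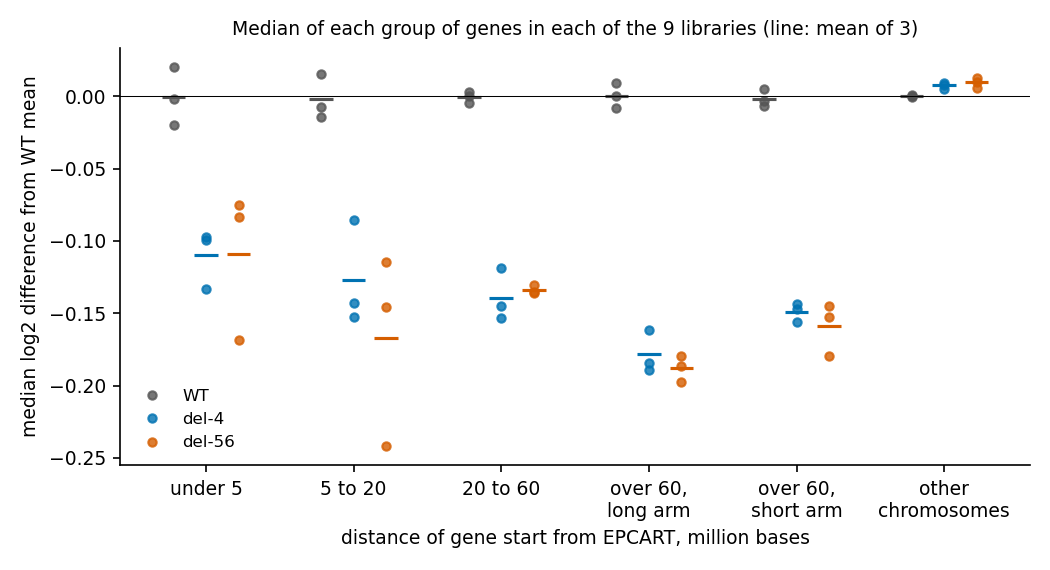
Median log2 difference from the WT mean (vertical axis) of the genes in each distance and arm group, for each of the 9 libraries (points) with the mean of the 3 libraries of a clone (lines). All deletion-clone points on chromosome 2 lie below the WT points, between −0.24 and −0.075. By the mean of the 3 libraries, the group nearest to *EPCART* is no lower than the others in either clone. Single libraries can differ, as in del-56 1 with −0.168 within 5 Mb and −0.135 at 20 to 60 Mb.

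Among the 5 groups, the share of genes called lower was also smallest near the locus. Within 5 Mb, 8 of 34 genes (23.5%) were called lower in clone del-4 and 9 (26.5%) in clone del-56. Beyond 60 Mb on the long arm the shares were 41.8% and 41.3%, and on the short arm 40.8% and 40.3%. The share within 5 Mb was nearer to the genome-wide background than that of any other group. Higher calls within 5 Mb were 11.8% and 5.88%, and in the other groups they ran from 5.01% and 4.78% on the short arm to 12% and 13.6% at 5 to 20 Mb. The 33 genes at the end of the long arm, taken alone, had 15.2% and 24.2% called lower, less than the genes near *EPCART*. In the group at 20 to 60 Mb, 30.8% and 32.3% were called lower. The median expression level also differed between groups, from 1187 normalized counts at 5 to 20 Mb to 1897 on the short arm, and its part in the shares of calls was not tested.

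**Figure D2:**
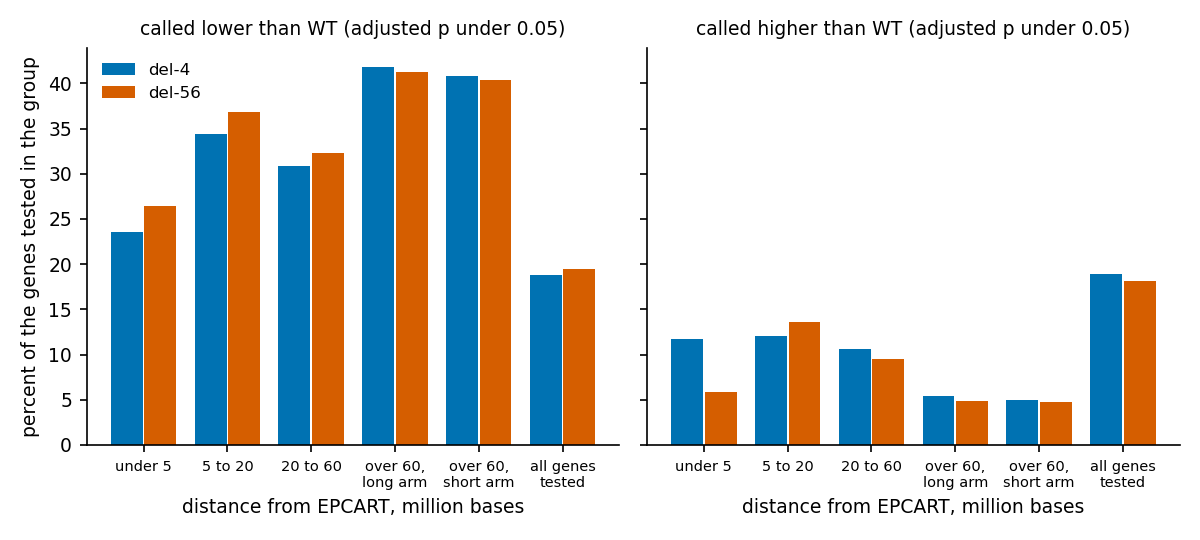
Percent of the tested genes of each group (vertical axis) called lower (left) or higher (right) than WT by limma at an adjusted p under 0.05, in del-4 and del-56, with all 17530 genes tested as background. The group within 5 Mb has the smallest share called lower of the 5 groups, 23.5% and 26.5%, and all groups have fewer higher calls than the background.

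Finer steps showed a decrease along most of the chromosome, with local relief. Of 26 steps of 10 Mb, 24 held at least 20 genes, and all 24 had a median below 0 in clone del-4 and in clone del-56. In 23 of these 24 steps the 3 libraries of del-4 all lay below the 3 WT libraries, and the same number was found for del-56. The exception in del-56 was the step 10 to 20 Mb from *EPCART* towards the centromere. Its highest del-56 library was at −0.0130 and its lowest WT library at −0.0145. The lowest of the 24 steps in del-4, and the second lowest in del-56, lay 40 to 50 Mb from *EPCART* towards the centromere, where 43 genes from *POTEF* to *SPOPL* had medians of −0.36 and −0.34. In it, 24 genes were called lower and 3 higher in del-4. Shallow values were found on both arms. The step 30 to 40 Mb towards the centromere held only 12 genes, with medians of −0.0098 in clone del-4 and −0.13 in clone del-56. Its del-4 libraries, at −0.030 to 0.00086, lay within the WT range of −0.054 to 0.081. The step at the end of the long arm, with 33 genes, had −0.073 and −0.070, with del-4 libraries that overlapped with WT, and 47 short arm genes from *SLC8A1* to *FSHR* had −0.095 and −0.074.

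**Figure D3:**
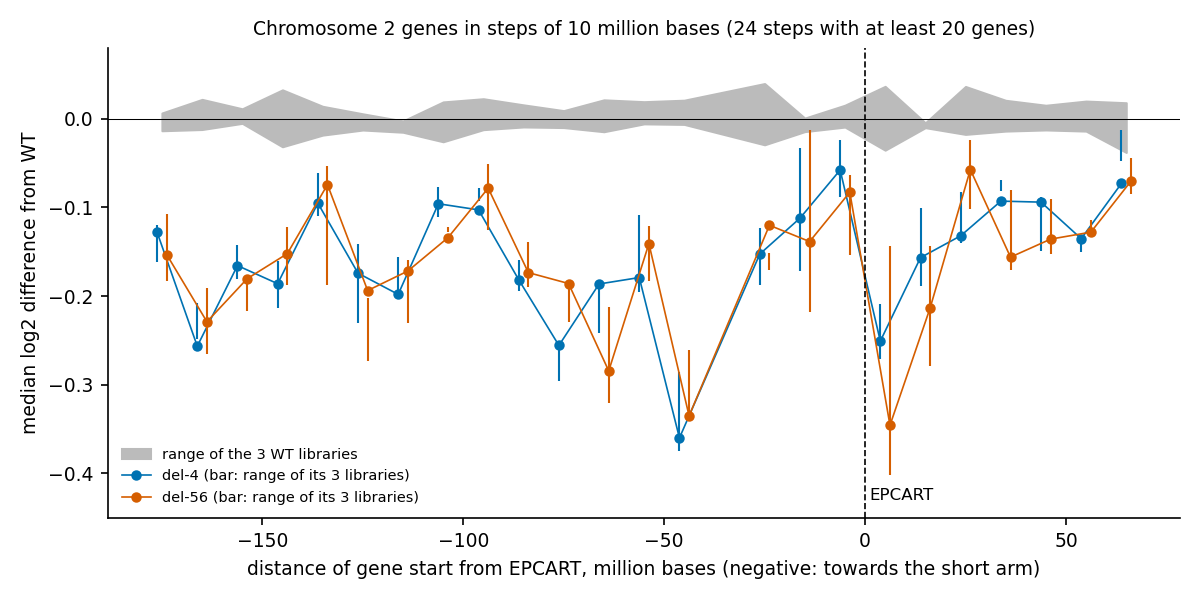
Median log2 difference from WT (vertical axis) of chromosome 2 genes in steps of 10 Mb against the distance from *EPCART* (horizontal axis), for del-4 and del-56. Points are medians of the genes' fold changes, bars span the medians of the 3 single libraries and need not hold the point, the grey band is the range of the 3 WT libraries, and steps under 20 genes are left out. Medians are below 0 in all 24 steps, and the steps on either side of *EPCART* differ from each other.

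The steps on either side of *EPCART* lay at different levels. The 50 genes up to 10 Mb towards the centromere had medians of −0.058 in clone del-4 and −0.083 in clone del-56, which were among the shallowest of the chromosome. The 31 genes up to 10 Mb towards the telomere had −0.25 and −0.35, the lowest of the 24 steps in del-56 and the fourth lowest in del-4. In del-56 the single libraries of that step ranged from −0.40 to −0.14, with replicates far apart. Among genes with a mean count of at least 10, the medians were −0.056 and −0.083 for 47 genes on the centromere side and −0.25 and −0.26 for 27 genes on the telomere side. Within 5 Mb the contrast was −0.077 and −0.086 for 22 centromere-side genes against −0.29 and −0.46 for 12 telomere-side genes. The telomere-side group was the weaker measurement. Its median gene had 202 normalized counts against 1996 on the other side, and the medians of its single libraries ran from −0.28 to −0.092 in clone del-4 and from −0.53 to −0.14 in clone del-56.

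The order of the sides changed with distance. At 5 to 20 Mb, telomere-side medians were −0.18 and −0.22 and centromere-side medians −0.082 and −0.12. At 20 to 60 Mb the order was the opposite, with −0.13 and −0.11 towards the telomere and −0.23 and −0.20 towards the centromere. In that distance range, 45.9% and 40.4% of 109 centromere-side genes were called lower, compared with 23.9% and 28.6% of 238 telomere-side genes.

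The genes that border *EPCART* did not move together. *CWC22* (chr2:179944876-180007297, start 0.120 Mb towards the centromere), a splicing factor needed for loading the exon junction complex, had normalized counts of 3219, 2728 and 2964 in WT, 2706, 2618 and 2506 in clone del-4 and 2669, 2933 and 2797 in clone del-56. The WT libraries overlapped with those of del-56, and the lowest WT library was just above the highest of del-4. Its log2 fold change was −0.18 ± 0.0635 (adjusted p = 0.0527) in clone del-4 and −0.083 ± 0.0654 (adjusted p = 0.365) in clone del-56 by limma. The del-4 adjusted p was 0.0171 with edgeR and 0.0156 with DESeq2, and over all alternatives it ran from 0.0125 to 0.172. *UBE2E3* (chr2:180967248-181076585), a ubiquitin-conjugating enzyme and the first member on the telomere side at 0.840 Mb, had 10190.4, 10106 and 10601 in WT, 8026, 7919 and 8317 in clone del-4 and 6710.4, 6834 and 6442 in clone del-56. The 3 genotypes did not overlap, with WT highest and del-56 lowest. By limma, the fold change was −0.35 ± 0.0325 (adjusted p = 1.09e-04) in clone del-4 and −0.63 ± 0.0360 (adjusted p = 5.23e-06) in clone del-56, which made *UBE2E3* the largest fall called in both clones within 5 Mb by the mean of the clones.

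*ZNF385B*, a zinc finger gene that starts 0.265 Mb from *EPCART* towards the centromere (chr2:179441982-179861612), rose in both clones. Its normalized counts were 5800.2, 6430.0 and 6367 in WT, 10884, 11383 and 10592 in clone del-4 and 8321, 7952 and 8286 in clone del-56. Again no genotype overlapped with another, but here WT was lowest and del-4 highest. The log2 fold change by limma was 0.82 ± 0.0470 (adjusted p = 1.00e-05) in clone del-4 and 0.40 ± 0.0455 (adjusted p = 2.10e-04) in clone del-56. Further towards the centromere came *SESTD1*, which encodes a protein with spectrin-type domains, with 1612, 1594 and 1887 in WT, 1554, 1500.0 and 1597 in clone del-4 and 1477, 1449.8 and 1402 in clone del-56. Its values were −0.13 ± 0.0725 (adjusted p = 0.21) and −0.23 ± 0.0732 (adjusted p = 0.0358), and the del-56 call was lost without any 1 of 5 libraries (WT 1 and 3 and each del-56 library), with adjusted p up to 0.118. *CCDC141*, a coiled-coil gene, had 727, 938 and 743 in WT, 707, 977 and 812 in clone del-4 and 803, 1147 and 1099 in clone del-56, and the genotypes overlapped. Its log2 fold changes of 0.049 ± 0.140 (adjusted p = 0.819) and 0.33 ± 0.15 (adjusted p = 0.116) were not called by limma, but the second was called with edgeR (adjusted p = 0.0303) and DESeq2 (0.0272).

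**Figure D4:**
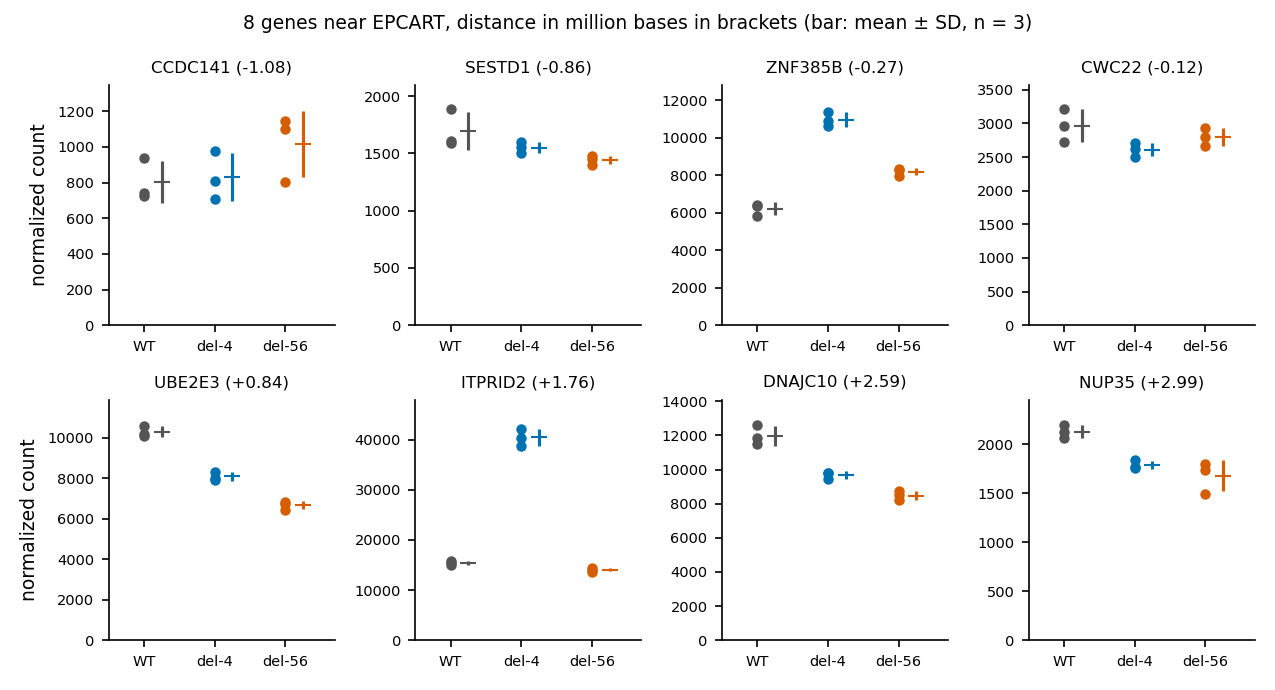
Normalized counts (vertical axes, starting at 0) of 8 genes near *EPCART* in each library of WT, del-4 and del-56 (points), with mean ± SD (n = 3) beside them. *ZNF385B* is higher and *UBE2E3*, *DNAJC10* and *NUP35* are lower in both deletion clones, *ITPRID2* is far higher in del-4 than in WT, and *CWC22* values lie close together.

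On the telomere side, the largest called changes were rises that belonged to 1 clone. *ITPRID2* (chr2:181891730-181930738), whose protein binds actin and inositol trisphosphate receptors, had 14897, 15346 and 15729 in WT, 42204, 38783 and 40366 in clone del-4 and 13689, 14446 and 14087 in clone del-56. All del-4 libraries were far above the others, and those of del-56 lay just below WT. The log2 fold change was 1.4 ± 0.0378 (adjusted p = 3.85e-07) in del-4 by limma. In del-56 it was −0.12 ± 0.0344 (adjusted p = 0.0215), a call that was lost without WT 2, WT 3, del-56 1 or del-56 3 (adjusted p up to 0.0829). *PDE1A*, a calcium-dependent phosphodiesterase 2.4 Mb away, followed the same pattern at a far lower level, with 65.7, 59.8 and 31.1 in WT, 215, 239 and 241 in clone del-4 and 70.6, 64.3 and 43.7 in clone del-56. It rose by 2.20 ± 0.285 (adjusted p = 5.99e-04) in del-4, whereas the del-56 value was 0.23 ± 0.346 (adjusted p = 0.653) with libraries that overlapped with WT. Between the clones the difference was 1.52 for *ITPRID2* and 1.97 for *PDE1A* (adjusted p = 7.56e-07 and 8.39e-04, limma). *PPP1R1C*, which lies between these genes and encodes a regulatory subunit of protein phosphatase 1, had 0.58 and −1.07 and was not called in either clone.

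A further pair of telomere-side genes fell in both clones. *DNAJC10*, a disulfide reductase of the endoplasmic reticulum, had 12599.6, 11823 and 11485 in WT, 9815, 9438 and 9796 in clone del-4 and 8187, 8721 and 8519.7 in clone del-56, without overlap between genotypes. The fold changes by limma were −0.30 ± 0.0391 (adjusted p = 5.68e-04) and −0.50 ± 0.0424 (adjusted p = 4.85e-05). *NUP35*, a nuclear pore protein, had 2124, 2061 and 2198 in WT, 1762, 1765 and 1836 in clone del-4 and 1497, 1739 and 1801 in clone del-56, with both deletion clones below WT. Its changes were −0.25 ± 0.0458 (adjusted p = 0.00336) and −0.35 ± 0.0731 (adjusted p = 0.00592) by limma. The remaining telomere-side members were not called in either clone. *NCKAP1*, a subunit of the WAVE actin regulatory complex, had 0.061 and −0.041, and *DUSP19*, a phosphatase, −0.27 and −0.18. *ITGA4*, *CERKL*, *FRZB* and *ZNF804A* had mean WT counts of 13.1, 12.1, 5.07 and 3.21, and *ITGA4* and *CERKL* overlap on opposite strands.

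**Figure D5:**
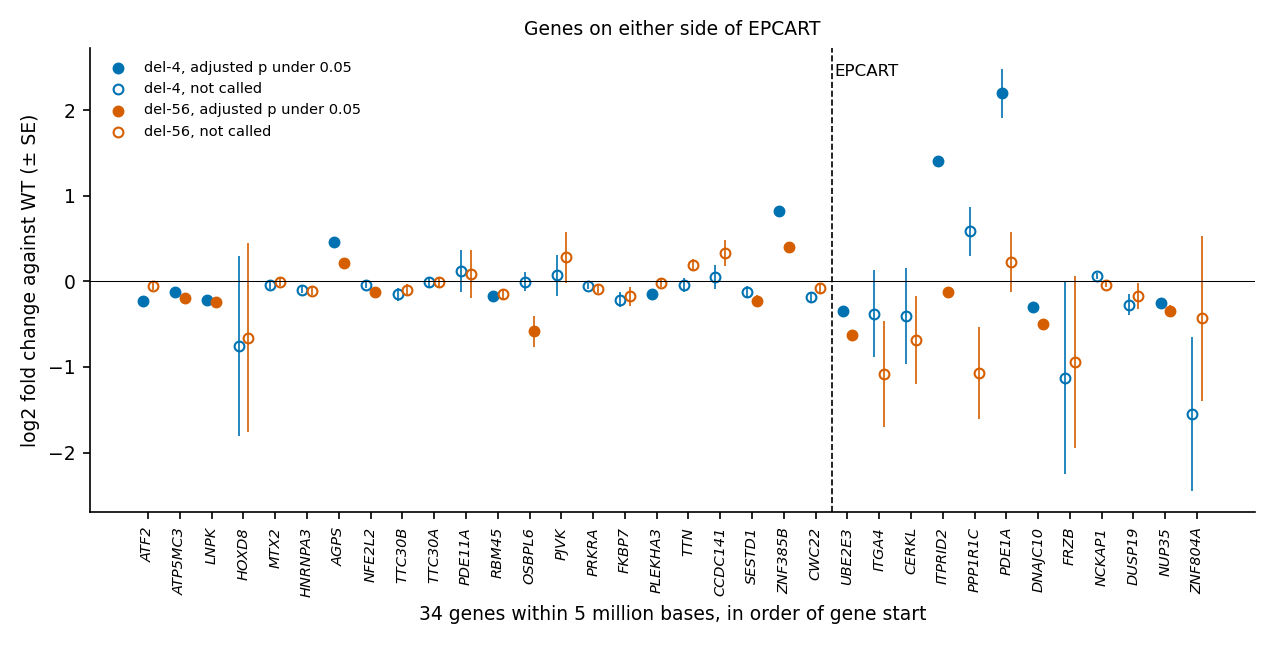
Log2 fold change against WT with its SE (vertical axis) for the 34 genes within 5 Mb of *EPCART*, in order of gene start, in del-4 and del-56. Filled points have an adjusted p under 0.05 by limma. Most centromere-side genes lie within 0.25 of 0, with *ZNF385B* and *AGPS* above it, and called telomere-side genes lie on both sides of 0.

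On the centromere side beyond *CCDC141*, *LNPK* and *ATP5MC3* were slightly lower in both clones. *LNPK*, which shapes junctions of the endoplasmic reticulum, had 3988, 3928 and 4152 in WT, 3384, 3652 and 3347 in clone del-4 and 3607, 3192 and 3455 in clone del-56 and changed by −0.22 ± 0.0446 (adjusted p = 0.00589) in clone del-4 and −0.24 ± 0.0514 (adjusted p = 0.00678) in clone del-56 by limma. *ATP5MC3*, a subunit of the mitochondrial ATP synthase, changed by −0.12 ± 0.0299 (adjusted p = 0.0131) and −0.19 ± 0.0470 (adjusted p = 0.011), but the calls were lost without WT 3 in del-4 (adjusted p = 0.0536) and without WT 2 or WT 3 in del-56 (up to 0.061). *AGPS*, an enzyme of ether lipid synthesis, was the exception, with 4284, 4335 and 4659 in WT, 5899, 6297 and 5986 in clone del-4 and 5022, 5110.5 and 5277 in clone del-56. It rose by 0.45 ± 0.0434 (adjusted p = 1.23e-04) in clone del-4 and 0.22 ± 0.0431 (adjusted p = 0.00446) in clone del-56 by limma, and no library overlapped with WT. *TTC30B* lies within *AGPS* on the opposite strand, *HNRNPA3* overlaps *NFE2L2* and *PRKRA* overlaps *PJVK* in the same way, and whether reads were counted by strand is not given in the sources used here.

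Other centromere-side calls were limited to 1 clone. In del-4, *ATF2*, a stress-responsive transcription factor (−0.23), *RBM45*, an RNA-binding protein (−0.18), and *PLEKHA3*, a Golgi lipid-binding protein (−0.15), were called lower by limma with adjusted p of 0.0256, 0.0342 and 0.0186. In del-56, *NFE2L2*, the regulator of the antioxidant response (−0.13), and *OSBPL6*, an oxysterol-binding protein (−0.59), were called lower, with 0.0342 and 0.0332. None of these 5 calls held without each library in turn. *ATF2* lost it without WT 2, WT 3, del-4 1 or del-4 3 (adjusted p up to 0.113), *RBM45* without any library but WT 3 (up to 0.0903) and *PLEKHA3* without WT 2 (0.0519). *NFE2L2* lost it without WT 1, WT 3, del-56 1 or del-56 3 (up to 0.115) and *OSBPL6* without any library but del-56 3 (up to 0.126).

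The other 11 centromere-side members besides *CWC22* were not called in either clone by limma. *HNRNPA3*, with adjusted p of 0.0838 and 0.0804, was called lower in both by DESeq2 (0.0237 and 0.0280), after quantile normalization and with libraries scaled to the same total. *HNRNPA3*, *MTX2*, *TTC30B*, *TTC30A*, *PRKRA* and *FKBP7* had log2 fold changes between −0.21 and −0.0085 in clone del-4 and between −0.17 and −0.013 in clone del-56. *TTN*, the giant muscle protein, had −0.045 and 0.19. *PJVK* and *PDE11A* had mean WT counts of 63.8 and 55.6 and values between 0.070 and 0.28. Of the 11 genes of the HOXD region, a cluster of developmental regulators about 4 Mb away, 2 reached the minimum. *HOXD8* had no more than 7.28 normalized counts in any library and *MTX2*, a mitochondrial import protein at the edge of the cluster, had −0.044 and −0.013. At the limit of 5 Mb, *ATP5MC3* and *ATF2* were the last genes inside, and the first outside were *CHN1* at 5.12 Mb and *WIPF1* at 5.44 Mb. *CHN1* had 0.36 and −0.67 and was not called (adjusted p = 0.539 and 0.201, limma). *WIPF1* had 0.14 in clone del-4, not called (adjusted p = 0.854, limma), and 1.83 in clone del-56, called higher (adjusted p = 0.0300, limma).

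Some larger changes than those of the neighbours were found at greater distance, on both arms and in both directions, though not in every group. The other groups are larger, with 125 to 439 genes against 34. Rises called over 2-fold made up 5.88% of the genes within 5 Mb in clone del-4 and 0% in clone del-56. In the rest of chromosome 2 they made up 1.55% and 2.01%, and among all genes tested 1.87% and 2.1%. Falls called over 2-fold were 0% within 5 Mb in both clones, beside 3.84% and 3.20% in the rest. The 2 largest falls and rises of each group, among members with a mean of at least 10 and a call in both clones, follow. They were ranked by these same fold changes, which are therefore given as a description.

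At 5 to 20 Mb, *SLC40A1*, the iron exporter ferroportin, had 153, 141 and 151 in WT, 5.76, 0 and 8.04 in clone del-4 and 0, 0 and 0 in clone del-56. It was nearly lost in clone del-4 and without a read in clone del-56, which put it at least 46.7-fold lower there, counting 3 reads per library as the limit of detection. *CSRNP3*, a nuclear protein gene, had 63.8, 50.2 and 92.4 in WT, 15.4, 7.97 and 8.04 in clone del-4 and 5.72, 12 and 7.28 in clone del-56, with −2.62 and −2.91 on the log2 scale. *GAD1*, which makes GABA from glutamate, rose from 32.9, 13.5 and 41.5 in WT to 84.5, 99.6 and 153 in clone del-4 and had 76.3, 60.2 and 84.9 in clone del-56 (2.0 and 1.43). Its del-56 call was lost without WT 1 or any 1 of the del-56 libraries (adjusted p up to 0.0935, limma). *ERICH2*, next to *GAD1*, had 7.73, 3.86 and 0 in WT, 25, 31.9 and 23.1 in clone del-4 and 42.9, 31.1 and 23.0 in clone del-56, and its calls were lost without any 1 del-4 library (up to 0.0698) or without del-56 1 (0.0552).

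At 20 to 60 Mb, *SPAG16*, a protein of the ciliary axoneme, had 404, 430.5 and 358 in WT, 42.3, 19.9 and 44.2 in clone del-4 and 19.1, 8.03 and 14.6 in clone del-56, a change of −3.53 ± 0.302 (adjusted p = 7.32e-05) in clone del-4 and −4.81 ± 0.307 (adjusted p = 9.65e-06) in clone del-56 by limma. *CFC1*, a Nodal co-receptor, had 33.8, 44.4 and 28.3 in WT, 0.960, 0 and 0 in clone del-4 and 12.4, 0 and 4.85 in clone del-56, and since a near-identical copy lies close to it, its reads are uncertain. The del-56 call of *CFC1* was lost without any WT library or without del-56 3 (adjusted p up to 0.0912). *C2orf80* rose from 9.66, 21.2 and 6.60 in WT to 99.9, 128 and 125 in clone del-4 and 141, 177 and 129 in clone del-56. *IGFBP5*, an insulin-like growth factor binding protein, rose from 21.3, 27.0 and 18.9 to 142, 203 and 187 and 118, 94.4 and 143, with 2.93 and 2.35 on the log2 scale. In both genes every deletion library was above every WT library.

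Beyond 60 Mb on the long arm, *MALL*, a membrane raft protein, had 1762, 1529.8 and 1814 in WT, 652, 614 and 658 in clone del-4 and 1211, 1231 and 1174 in clone del-56, and *LONRF2*, a ubiquitin ligase of the LON family, had 1409, 1513 and 1586 in WT, 947, 964 and 831 in clone del-4 and 572, 478 and 526 in clone del-56. Del-4 was the lower clone for *MALL* (−1.4 against −0.49) and del-56 for *LONRF2* (−0.72 against −1.52). *SH3RF3*, a scaffold protein with SH3 domains, rose by 1.17 and 1.09. *CROCC2* had 0.95 and 0.90, and its calls were lost without del-4 2 or del-4 3 in the first comparison (adjusted p up to 0.064, limma) and without WT 2, WT 3, del-56 1 or del-56 3 in the second (up to 0.0852).

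On the short arm, *FNDC4*, a secreted fibronectin type III protein, had 102, 94.6 and 126 in WT, 0, 0 and 0 in clone del-4 and 3.82, 4.02 and 0 in clone del-56, which in del-4 was at least 36.4-fold lower. *GAREM2*, an adaptor in growth factor signalling, had 891, 909 and 1016 in WT, 282, 251 and 257 in clone del-4 and 64.9, 44.2 and 55.8 in clone del-56 and changed by −1.83 ± 0.0956 (adjusted p = 6.58e-06) in clone del-4 and by −4.08 ± 0.167 (adjusted p = 7.95e-07) in clone del-56 on the log2 scale (limma). *LRATD1* rose from 75.4, 92.7 and 77.3 in WT to 392, 456 and 538 in clone del-4 and 179, 145 and 124 in clone del-56. *LTBP1*, which stores latent TGF-β in the matrix, rose from 255, 266 and 290.3 to 822, 789 and 806 and 835, 664 and 845.

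Genes grouped by function followed the chromosome to different degrees. The function lists and their members were chosen with earlier results of these data known, and the counts stand beside chromosome-wide medians of −0.15 and −0.16 and shares of 36.7% and 37.2% called lower and 7.79% and 7.26% called higher. Of 11 genes of the respiratory chain and its substrates, 8 were called lower and 2 higher in del-4, compared with 8 and 1 in del-56, with medians of −0.18 and −0.24. *GPD2*, the mitochondrial glycerol-3-phosphate dehydrogenase, had the largest fall by the mean of the clones, with 6368, 5956 and 6046 in WT, 4041, 3994 and 4039.9 in clone del-4 and 4528, 4490.0 and 4533 in clone del-56 and log2 fold changes of −0.60 ± 0.0349 (adjusted p = 1.05e-05) and −0.44 ± 0.0367 (adjusted p = 4.44e-05) by limma. *PDK1*, which inhibits pyruvate dehydrogenase and so is no subunit of the chain, had the largest rise of 0.15 and 0.16, and its del-4 call was lost without WT 3 (adjusted p = 0.0501, limma).

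Of 22 genes of translation, 11 were called lower and 4 higher in del-4, compared with 9 and 2 in del-56, with medians of −0.11 and −0.072. The largest fall was that of *EIF2AK3*, the kinase PERK, which phosphorylates eIF2α and thereby limits initiation. It had 3419, 3437 and 3604 in WT, 2534, 2304 and 2321 in clone del-4 and 2538, 2699.8 and 2511 in clone del-56 and changed by −0.55 ± 0.0488 (adjusted p = 8.67e-05) and −0.43 ± 0.0457 (adjusted p = 1.43e-04) by limma. *MARS2*, the mitochondrial methionyl-tRNA synthetase, had 3639, 3788 and 3865 in WT, 2925, 3328 and 3238 in clone del-4 and 3137, 2929 and 3169.7 in clone del-56 and fell in both clones (−0.25 and −0.29). The ribosomal protein gene *RPL37A* had the largest rise, 0.28 in clone del-4 and 0.13 in clone del-56, of which the first was called by limma and lost without WT 2, WT 3 or del-4 1 (adjusted p up to 0.0711). Ribosomal protein genes have many processed copies, so its counts are uncertain.

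Of 18 genes of DNA repair and replication, 9 were called lower and 3 higher in del-4, compared with 8 and 1 in del-56, with medians of −0.11 and −0.13. *MCM6*, a subunit of the replicative helicase, had 16656, 16298 and 17032 in WT, 12746, 13081 and 13036 in clone del-4 and 12463, 12839 and 13064 in clone del-56, with −0.36 ± 0.0281 (adjusted p = 4.53e-05) and −0.38 ± 0.0324 (adjusted p = 4.76e-05) by limma. *POLE4*, a small subunit of DNA polymerase epsilon, was higher in every deletion library than in WT (0.41 and 0.43). *BARD1*, the partner of BRCA1, and *DNMT3A*, a DNA methyltransferase, moved in opposite directions in the clones and were named after their values were seen. *BARD1* had 0.23 in clone del-4 and −0.37 in clone del-56, and *DNMT3A* had 0.39 and −0.46, all 4 called by limma with adjusted p of 8.02e-04, 1.39e-04, 4.26e-04 and 3.68e-04.

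Of 13 genes of integrins and matrix, 4 were called lower and 1 higher in del-4, compared with 5 and 2 in del-56, with medians of −0.35 and −0.35. By the mean of the clones, the largest fall was that of *ITGB6*, an epithelial integrin with no more than 29.0 counts in any library and no call. The largest rise was that of *COL6A3*, a collagen VI chain with 1.93, 0.965 and 0 in WT, 3.84, 0 and 0 in clone del-4 and 5.72, 8.03 and 42.4 in clone del-56, where the del-56 call was lost without WT 2, WT 3 or del-56 3 (adjusted p up to 0.084, limma). Well-expressed members were named after their values were seen. *ITGAV*, the αv integrin 6.46 Mb from *EPCART*, had 8029.6, 8092 and 8266 in WT, 5079, 5349 and 4781 in clone del-4 and 6195, 6465 and 6495 in clone del-56 and changed by −0.68 ± 0.0431 (adjusted p = 1.64e-05) and −0.35 ± 0.0334 (adjusted p = 8.77e-05) on the log2 scale. *TFPI*, an inhibitor of tissue factor 7.44 Mb away on the same side, had 17456, 16605 and 17160.0 in WT, 23457, 23057 and 23510.0 in clone del-4 and 20772, 21296 and 21758 in clone del-56 and rose by 0.45 ± 0.0285 (adjusted p = 1.63e-05) and 0.32 ± 0.0329 (adjusted p = 1.30e-04). *FN1*, fibronectin, had −0.18 in clone del-4 and −1.22 in clone del-56.

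Of 12 tested genes of apoptosis, 5 were called lower and 3 higher in del-4, compared with 4 and 4 in del-56, with medians of −0.15 and −0.15. *BOK*, a pro-apoptotic relative of BCL2 near the end of the long arm, had 2081, 2364 and 2166 in WT, 3666, 3227 and 3399 in clone del-4 and 2881, 2645 and 3030.3 in clone del-56 and rose by 0.64 ± 0.0637 (adjusted p = 1.55e-04) and 0.37 ± 0.0664 (adjusted p = 0.00255) by limma. *STK39*, a stress-activated kinase named after its values were seen, rose by 0.49 and 0.46. *PDCD1*, an immune receptor, was at no more than 3.86 counts in any library and was not called. Of 20 tested transcription factor genes, 4 were called lower and 3 higher in each clone, with medians of 0.0057 and −0.042. *EPAS1*, a hypoxia-inducible factor, had 58.0, 40.5 and 56.6 in WT, 140.2, 102 and 100.4 in clone del-4 and 124, 141 and 83.7 in clone del-56 and was higher in both clones (1.13 and 1.14). *PAX8* had 42.5, 51.2 and 39.6 in WT, 7.68, 17.9 and 31.1 in clone del-4 and 22.9, 13.1 and 10.9 in clone del-56, with −1.37 ± 0.475 (adjusted p = 0.0526) in clone del-4 and −1.51 ± 0.362 (adjusted p = 0.0108) in clone del-56 by limma. The del-4 value was called with edgeR (adjusted p = 0.0453) and DESeq2 (0.0402). The adjacent homeobox genes *DLX1* and *DLX2*, about 8 Mb towards the centromere and named after their values were seen, moved apart. *DLX1* had 433, 502 and 432 in WT, 152, 211 and 185 in clone del-4 and 281, 333 and 313 in clone del-56, and *DLX2* had 186, 191 and 147 in WT, 302, 291 and 259 in clone del-4 and 332, 324 and 325 in clone del-56, with every deletion library below WT in the first and above WT in the second.

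All 9 *UGT1A* genes, which encode glucuronidation enzymes and share their last exons, were below 0 in both clones, and 1 was called in clone del-4 and 9 in clone del-56, with medians of −0.27 and −0.48. Because of the shared exons these are not independent measurements. *UGT1A1* had 371, 372 and 353 in WT, 291, 282 and 295 in clone del-4 and 223, 253 and 188 in clone del-56 (−0.34 and −0.73), and its del-4 call was lost without any 1 of the 6 libraries (adjusted p up to 0.0756, limma). *UGT1A5*, the smallest fall of the family, had −0.24 and −0.44, the latter lost as a call without WT 2 or del-56 3 (up to 0.065).

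Between the deletion clones, chromosome 2 held about the background share of differences. By the direct limma comparison, 71 chromosome 2 genes (6.29%) were lower in clone del-4 than in clone del-56 and 81 (7.17%) were higher, beside 7.18% and 8.64% of all genes tested. Leaving out any 1 library gave fewer calls, 41 to 64 lower and 45 to 70 higher. With all libraries kept, the counts were 90 and 107 with edgeR and 91 and 110 with DESeq2, but 62 and 72 with a replicate block. With libraries scaled to the same total they were 108 and 61. The median difference, del-4 minus del-56, was 0.0064 on the log2 scale. Of the 34 genes within 5 Mb, 7 (20.6%) were higher in clone del-4 than in clone del-56 by limma and the others were not called, the 7 being *AGPS*, *ZNF385B*, *UBE2E3*, *ITPRID2*, *PDE1A*, *DNAJC10* and *NCKAP1*. Of these, 5 lay on the telomere side, among 12 genes. With other settings some genes were called lower in del-4, namely *ATF2* with edgeR (adjusted p = 0.0459) and DESeq2 (0.0448), *TTN* with edgeR (0.0438) and *PLEKHA3* with libraries scaled to the same total (0.0437). Others were newly called higher in del-4, namely *OSBPL6* with edgeR (adjusted p = 0.0158) and DESeq2 (0.0167) and *PPP1R1C* with edgeR (0.0432) and DESeq2 (0.0299). The group within 5 Mb is small and holds genes that rose in del-4 (*ITPRID2* and *PDE1A*) as well as genes that fell further in del-56 (*UBE2E3* and *DNAJC10*). Without del-4 3 the adjusted p of *DNAJC10* was 0.0506, and that of *NCKAP1* was between 0.0731 and 0.125 without any 1 of the 6 libraries.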

How the data were processed

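RNA-seq libraries of WT, del-4 and del-56 (n = 3 each) were prepared strand-specifically. The authors aligned reads to GRCh38 with STAR 2.71a (FastQC 0.11.8, Trim Galore 0.6.5 and SAMtools 1.8 are also named in the submitters' processing notes or the methods), counted protein-coding transcripts of GENCODE 38 with bedtools 2.27.1, and deposited counts divided by size factors, a depth-normalized signal per gene. Whether strand was used in counting is not given in the sources used here. Whole reads were recovered for 100% of values (tolerance 0.001), giving the depth.

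Genes were matched to GENCODE 44 by Ensembl ID (19905 of 19984, and 39 tested genes had no position). Genes averaging 1 or more over 9 libraries were tested with limma 3.58.1 in R 4.3.3 on log2(value + 1) within each pair of groups, with Benjamini-Hochberg adjustment over all 17530 genes. The minimum took in genes at 0 in both groups of a comparison, and with a minimum over its 6 libraries 436 and 442 genes were called lower in place of 414 and 420. edgeR 4.0.16 and DESeq2 1.42.0 on the recovered reads, other pseudocounts, minimums and scalings, a replicate block and leaving out each library were alternatives. Fits were tested on simulated data. Summaries used Python 3.11.15.

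The named genes were all members within 5 Mb, the 2 largest falls and rises per group among members with a mean of at least 10 called in both clones, *AGPS*, *GPD2* and *MARS2*, and the largest fall and rise of each function list. Another 8 (*ITGAV*, *TFPI*, *DLX1*, *DLX2*, *FN1*, *BARD1*, *DNMT3A* and *STK39*) were named after their values were seen. Members and lists were chosen with earlier results of these data known. The number of unused columns was 0.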

Additional observations from a re-analysis of the deposited data

Results flagged for a closer look

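Among 73 named genes, 19 differed between del-4 and del-56 in the direct limma comparison at an adjusted p under 0.05, with values here as log2 differences, del-4 minus del-56. Within 5 Mb of *EPCART* these were *NCKAP1* (0.10), *DNAJC10* (0.19), *AGPS* (0.24), *UBE2E3* (0.28), *ZNF385B* (0.42), *ITPRID2* (1.52) and *PDE1A* (1.97). Elsewhere on the chromosome, *MALL* (−0.91), *DLX1* (−0.76), *ITGAV* (−0.33) and *GPD2* (−0.17) were lower in del-4. *TFPI* (0.13), *BOK* (0.27), *BARD1* (0.60), *LONRF2* (0.80), *DNMT3A* (0.86), *FN1* (1.04), *LRATD1* (1.63) and *GAREM2* (2.26) were higher in del-4. *BARD1*, *DNMT3A*, *DLX1*, *ITGAV*, *TFPI* and *FN1* were chosen after their values were seen.

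The call was lost for *NCKAP1* without any 1 of the 6 libraries (adjusted p 0.0731 to 0.125, limma). For *BOK* it was lost without any library but del-4 2 (0.0513 to 0.118), for *DLX1* without del-4 1, del-4 3, del-56 2 or del-56 3 (0.0566 to 0.0730), for *TFPI* without del-4 1, del-4 3 or del-56 2 (0.0617 to 0.0789) and for *DNAJC10* without del-4 3 (0.0506).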

How the results depend on the processing

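The chromosome 2 median minus that of other chromosomes stayed between −0.16 and −0.15 in clone del-4 and between −0.17 and −0.15 in clone del-56 over all alternatives run. Genes called lower numbered 311 to 550 in clone del-4 and 325 to 465 in clone del-56, and genes called higher 64 to 97 and 60 to 90, all within 1.5 times the reported counts. The del-4 difference between genes within 5 Mb and the rest was 0.027, and it became −0.0044 with no minimum, 0.072 with a mean of at least 10, −0.0047 after quantile normalization, 0.096 within 2 Mb and 0.018 to 0.070 leaving out each library. Genes lower in clone del-4 than in clone del-56 numbered 71, 108 with libraries scaled to the same total, and 41 to 64 leaving out each library. Those higher numbered 81, and 45 to 70 leaving out each library. The cause of these shifts was not tested. Over named genes, 3521 of 3703 values under alternatives kept their side of the threshold, 74 passed it newly and 108 no longer passed it. The sign changed in 93 of them, of which 0 were called in the reported fit or under the alternative. edgeR called 444 lower and 97 higher in clone del-4 and 447 and 89 in clone del-56.

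With a replicate block, the counts were 388 and 86 in del-4, 359 and 64 in del-56, and 62 and 72 between the clones. Deviations of same-numbered libraries correlated at −0.053 to 0.063 (median 0.029) and those of other libraries at −0.054 to 0.044 (median −0.011). Same-numbered pairs that involve del-4 were all above 0 (0.023 to 0.063), and those of WT with del-56 all below it (−0.053 to −0.00047). Because all these correlations were weak, the numbers were not taken to pair the libraries in the main test, and whether they do is not settled.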
